A study of Rattus norvegicus with 25 samples.

Results

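The period and cryptochrome genes Per1, Per2, Per3, Cry1 and Cry2 were followed in the striatum of Lister Hooded rats, all males, at postnatal day (PND) 35 to 42. All probe sets whose annotation gives exactly 1 of these 5 symbols were taken, which gave 5 of the 29214 probe sets of the table, 1 for each gene. All 5 lay among the 14607 probe sets with a mean level at or above the median, which were the ones tested. The arrays covered 10 Con-Pf, 7 Nic and 8 Con animals, with 1 Affymetrix rat gene 1.0st array per animal. Con-Pf offspring came from dams that received each day only as much food as the nicotine dams had eaten, with free access to water. Nic offspring came from dams whose drinking water contained nicotine, given from before mating and in pregnancy, and Con offspring from dams that were neither given nicotine nor pair-fed. The treatment was given to the dam, and the offspring themselves had not been used in other experiments. The labels do not tie an animal to its litter. The study had fewer pair-fed dams than the 10 Con-Pf animals, so that some of these were littermates. Animals of the other groups may be littermates too. The p-values measure the spread between these animals and treat each animal as independent.

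Period and cryptochrome proteins are the repressors of the circadian clock, a feedback loop that runs in most cells, neurons and glia of the striatum included. The factors CLOCK (or NPAS2) and BMAL1 bind E-boxes and switch on the Per and Cry genes. PER and CRY proteins then enter the nucleus together and block CLOCK and BMAL1, so that their own transcripts fall again. A second loop of REV-ERB and ROR receptors sets Bmal1, and also acts on Cry1, while D-box factors such as DBP, TEF and NFIL3 act on several Per genes. Transcripts of these genes rise and fall over the day, at different hours for different members. The rats were kept on a light-dark cycle with equal numbers from each group taken on the same day, while the sources used here do not give the hour at which an animal was killed. The part of that hour in the differences below was not tested.

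By their annotation in GRCr8, Per1 lies at chr10:54299002-54313804 (probe set 10734882), Per2 at chr9:99454828-99497069 (probe set 10929842) and Per3 at chr5:166740914-166778243 (probe set 10881861). Cry1 lies at chr7:20417526-20481791 (probe set 10894525) and Cry2 at chr3:98830479-98860437 (probe set 10847525). Promoter windows of 300 bases, 250 before and 50 after an annotated start, were held for 4 of the 5 genes in the RefSeq sequences of GRCr8, all but Cry1. The windows were searched on both strands for the E-box CACGTG, the E-prime-box CACGTT, the D-box TTATGTAA or TTACGTAA, the cAMP response element TGACGTCA and its short form TGACG, which is also part of the full element. Of 33469 promoter windows of this length, 6.42% held CACGTG, 4.83% CACGTT, 1.01% a D-box, 1.83% TGACGTCA and 21.2% TGACG. The windows of Per2, Per3 and Cry2 are shown because Per2 and Cry2 held a match to a clock motif, and Per3 was the gene with the largest change. Capitals mark the E-prime-box and the D-box, and all 3 windows are read 5′ to 3′ on the minus strand.
Per2 (chr9:99496944-99497243): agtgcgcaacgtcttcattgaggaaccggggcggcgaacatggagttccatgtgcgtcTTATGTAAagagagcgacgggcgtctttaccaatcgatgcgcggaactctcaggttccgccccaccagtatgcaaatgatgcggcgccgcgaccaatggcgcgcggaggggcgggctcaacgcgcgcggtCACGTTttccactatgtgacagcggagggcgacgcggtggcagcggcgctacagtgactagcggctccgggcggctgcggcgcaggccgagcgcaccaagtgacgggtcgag
Per3 (chr5:166777751-166778050): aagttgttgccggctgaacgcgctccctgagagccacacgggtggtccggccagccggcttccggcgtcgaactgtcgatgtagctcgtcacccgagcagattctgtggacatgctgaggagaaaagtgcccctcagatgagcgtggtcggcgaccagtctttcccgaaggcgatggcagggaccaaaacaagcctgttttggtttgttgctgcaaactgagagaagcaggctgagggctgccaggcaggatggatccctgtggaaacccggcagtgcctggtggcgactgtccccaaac
Cry2 (chr3:98860388-98860687): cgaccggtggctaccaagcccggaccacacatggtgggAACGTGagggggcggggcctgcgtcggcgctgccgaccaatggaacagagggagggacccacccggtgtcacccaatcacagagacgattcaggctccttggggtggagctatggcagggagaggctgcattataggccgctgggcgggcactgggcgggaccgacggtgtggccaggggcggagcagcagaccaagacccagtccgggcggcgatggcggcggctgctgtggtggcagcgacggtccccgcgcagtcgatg

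The Per2 window held the D-box TTATGTAA starting 192 bases before the start, the E-prime-box CACGTT starting 62 bases before it, and a TGACG in its last bases. In the mouse an E-prime-box of this kind in the Per2 promoter is a known site of CLOCK and BMAL1. The Cry2 window held CACGTT on the opposite strand, read above as AACGTG, 212 bases before the start. The Per3 window held only the short form of the response element, read above as cgtca, and the Per1 window (chr10:54304126-54304425, plus strand) held none of the motifs. The annotated start lies 5374 bases inside the gene for Per1, 443 for Per3, 76 for Per2 and 0 for Cry2. For Per1, Per2 and Per3 it is thus not the outermost start of the gene. The whole windows of Per1 and Per3 lie inside the annotated gene. A match describes the letters of a window, and a window without one says nothing about the factor.

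The arrays correlated with each other at 0.967 to 0.997 over the probe sets tested. The study kept a sample with a low RNA integrity number, which it held to be likely due to chip loading. The sources used here do not say which sample it was. Con 3 and Con 5 stood apart from the other arrays on the first principal component, which held 30.45% of the variance. For the 5 genes, fold changes that moved by over 1.5 times or lost their call without these arrays are given both ways. Con-Pf 9 and Con-Pf 10, titled Con-Pf but described as controls, were grouped by their titles. Marker genes of striatal projection neurons, among them Ppp1r1b, Drd1 and Drd2, were well expressed, with a mean log2 level over 9 genes of 11.93 in Con-Pf, 11.94 in Nic and 11.91 in Con. The mean of the 2 choroid plexus markers tested differed widely between arrays, over 7.04 to 11.8 in Con-Pf, 6.88 to 9.48 in Nic and 6.93 to 11.3 in Con. That of the 3 cortical and thalamic markers tested ran over 9.42 to 9.99 in Con-Pf, 9.43 to 11.04 in Nic and 9.52 to 10.6 in Con. None of the marker genes of the 8 cell type lists passed the test in any of the 3 comparisons. Of all probe sets tested, at most 1.26% passed in a comparison. The part of tissue taken along with the striatum was not tested. In a whole tissue, fewer cells of a type and less RNA per cell cannot be told apart.

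Pair-feeding of the dam asks what its reduced food intake leaves behind in the offspring, and here Con-Pf was compared with Con. By the study's measurements the Con-Pf dams already ate, drank and weighed less than Con dams in the week before pregnancy. The study also names higher stress in pair-fed animals as a possible further factor. The parts of fluid intake and stress were not tested. Per3 was lower and Cry1 higher in Con-Pf striatum, and both differences passed the test. Per1 was on the higher and Per2 on the lower side without passing it, and Cry2 differed little. Over all probe sets tested, 184 of 14607 passed at an adjusted p under 0.05 in limma (1.26%), 146 of them higher (1%) and 38 lower (0.26%) in Con-Pf. Of the 5 genes 2 passed, 1 in each direction.

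Per3, a period gene that the central clock of the mouse can do without, ran over 9.12, 9.20 and 9.28 (lowest, median and highest log2 value) in the 10 Con-Pf arrays and over 9.38, 9.52 and 9.74 in the 8 Con arrays. Every Con-Pf array lay below every Con array. Such a separation of both groups was found for 40 of the 14607 probe sets (0.274%). The level fell by 20.3% in Con-Pf (9.20 ± 0.053 in Con-Pf and 9.53 ± 0.11 in Con, mean ± SD), a log2 fold change of -0.33 with a confidence interval (95%) of -0.42 to -0.24. Its adjusted p in limma was 3.63e-05, and it was the 10th largest of the 38 falls. Without Con 3 and Con 5 the log2 fold change was -0.29 (adjusted p in limma = 0.00022). With Con-Pf 9 and Con-Pf 10 counted as Con, by their descriptions, it was -0.26 and no longer passed (adjusted p in limma = 0.0572).

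Cry1, the stronger repressor of the cryptochrome pair in the mouse, ran over 8.12, 8.34 and 8.56 in Con-Pf and over 8.03, 8.07 and 8.20 in Con. 8 of the 10 Con-Pf arrays lay above every Con array, and the remaining Con-Pf 2 and Con-Pf 10 lay at 8.12. The level was 17.7% higher in Con-Pf (8.32 ± 0.14 in Con-Pf and 8.08 ± 0.056 in Con, mean ± SD), a log2 fold change of 0.24 with an interval of 0.13 to 0.34 and an adjusted p in limma of 0.0191. It was the 92nd of the 146 rises by size. The difference kept its direction and size without Con 3 and Con 5 (0.23), where its adjusted p in limma was 0.0924. It also no longer passed with Con-Pf 9 and Con-Pf 10 counted as Con (adjusted p = 0.113 in limma), without the filter on low probe sets (0.0552 in limma), and with the methods' t-test with equal (0.0681) or unequal (0.0806) variances.

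Per1, which is both a clock gene and a gene induced within the hour by neuronal activity and by glucocorticoids, ran over 9.76, 10.24 and 10.55 in Con-Pf and over 9.74, 9.93 and 10.28 in Con. It was the most scattered of the 5 genes in Con-Pf: 6 arrays lay between 10.21 and 10.55 and 4 between 9.76 and 10.01. 4 of the 10 Con-Pf arrays lay above every Con array. The mean was 10.17 ± 0.27 in Con-Pf and 9.95 ± 0.17 in Con, and the log2 fold change of 0.22 (interval 0.03 to 0.40) had an unadjusted p of 0.0252 and an adjusted p of 0.177 in limma. With Con-Pf 9 (10.28) and Con-Pf 10 (10.45) counted as Con it was 0.08.

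Per2, a period gene whose loss disrupts the rhythm of mice in constant darkness, ran over 7.80, 7.97 and 8.16 in Con-Pf and over 7.97, 8.10 and 8.39 in Con. 5 of the 10 Con-Pf arrays lay below every Con array, and 4 of the 8 Con arrays lay above every Con-Pf array. The log2 fold change of -0.18 (interval -0.30 to -0.07; adjusted p in limma = 0.0949) became -0.13 without Con 3 and Con 5 (adjusted p in limma = 0.536).

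Cry2, whose loss lengthens the period of mice where that of Cry1 shortens it, ran over 10.70, 10.78 and 10.86 in Con-Pf and over 10.68, 10.79 and 11.09 in Con. The groups overlapped almost fully, and only Con 3 (10.93) and Con 5 (11.09) lay above all Con-Pf arrays. The log2 fold change was -0.04 (adjusted p in limma = 0.574), with an interval of -0.13 to 0.05 that leaves no room for a change as large as that of Per3 or Cry1. Without Con 3 and Con 5 the estimate lay on the other side of 0 (0.02).

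**Figure D1:**
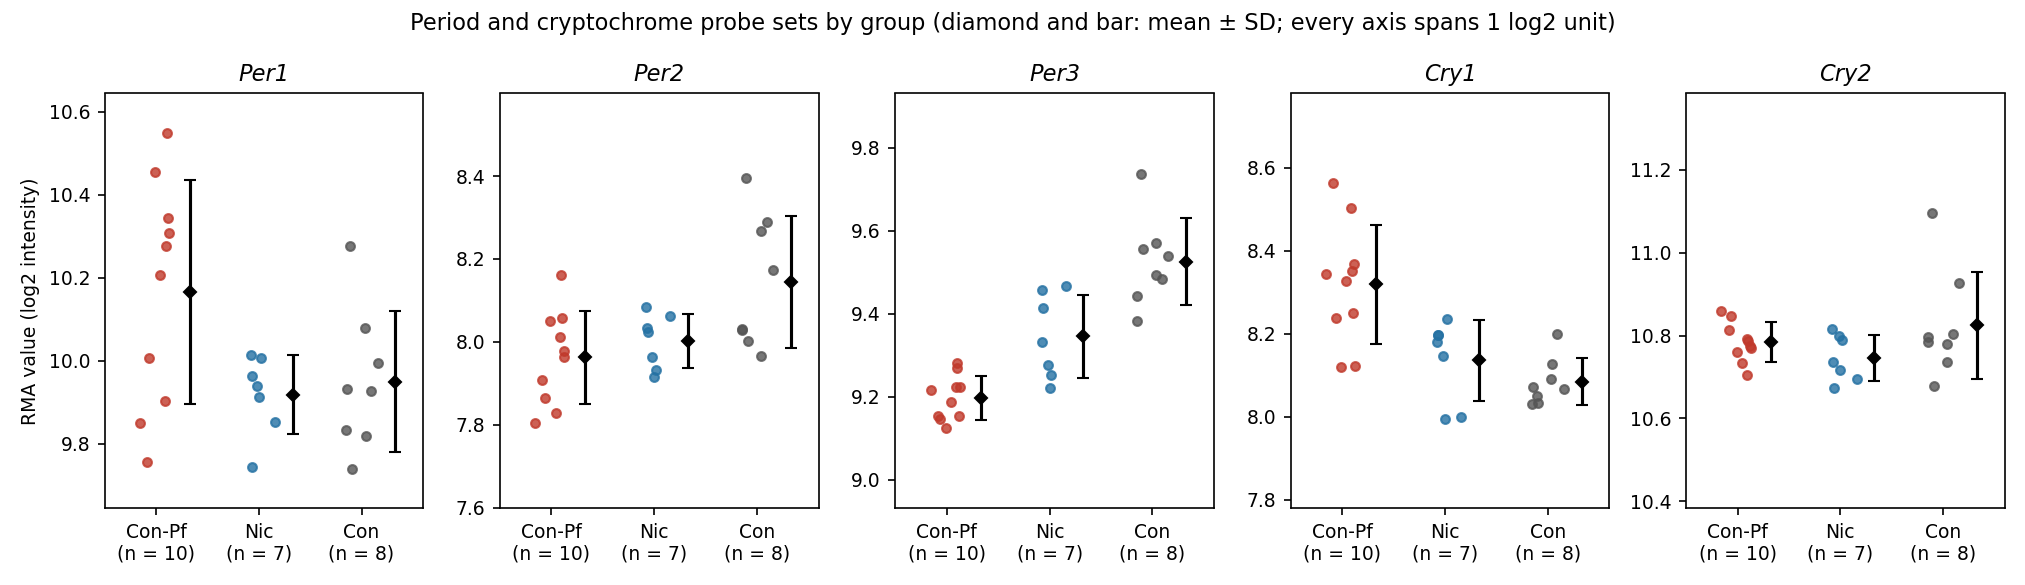
Log2 RMA value (y axis, 1 log2 unit in each panel) of the 5 genes in Con-Pf (n = 10), Nic (n = 7) and Con (n = 8), with 1 point per array and the mean ± SD as a diamond and bar. Per3 values of Con-Pf (9.12 to 9.28) lie below all values of Con (9.38 to 9.74), and most Cry1 values of Con-Pf lie above those of Con.

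Con-Pf and Nic share the food intake of their dams and differ in nicotine and in the way the intake was limited. By the study's measurements the Nic dams also drank less than the Con-Pf dams. The part of fluid intake was not tested. In this comparison 27 of the 14607 probe sets passed (0.185%), and none of the 5 genes did. Cry1, Per3 and Per1 had an unadjusted p under 0.05. The comparison uses the same Con-Pf arrays as that with Con and is not independent of it. Cry1 ran over 8.00, 8.18 and 8.23 in Nic, and 8 of the 10 Con-Pf arrays lay above every Nic array. The log2 fold change of Con-Pf minus Nic was 0.18 (interval 0.07 to 0.29; unadjusted p = 0.00236 and adjusted p = 0.425 in limma). Per1 ran over 9.74, 9.94 and 10.01 in Nic, a narrow range beside that of Con-Pf, and 6 of the 10 Con-Pf arrays lay above all of it. Its log2 fold change was 0.25 (interval 0.05 to 0.44; adjusted p in limma = 0.883).

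Per3 ran over 9.22, 9.33 and 9.47 in Nic. 6 of the 10 Con-Pf arrays lay below all Nic arrays and 4 of the 7 Nic arrays above all Con-Pf arrays. The log2 fold change of Con-Pf minus Nic was -0.15 (interval -0.24 to -0.06; adjusted p in limma = 0.470). Per2 (-0.04) and Cry2 (0.04) were close to 0, both with an adjusted p of 0.999 in limma.

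Nic against Con asks for the trace of gestational nicotine itself together with that of the lower food and fluid intake it brings. No probe set passed here (0 of 14607, 0%; 2370 had an unadjusted p under 0.05), and so none of the 5 genes did. Per3 came nearest among the 5: 4 of the 7 Nic arrays lay below all Con arrays, and 6 of the 8 Con arrays above all Nic arrays. Its level was 9.35 ± 0.10 in Nic and 9.53 ± 0.11 in Con (mean ± SD). The log2 fold change was -0.18 (interval -0.28 to -0.08), with an unadjusted p of 0.000731 that ranked 29th of 14607 and an adjusted p of 0.268 in limma. Per2 ran over 7.92, 8.02 and 8.09 in Nic, with 4 of the 8 Con arrays above all of them, and had a log2 fold change of -0.14 (interval -0.27 to -0.01; adjusted p in limma = 0.282). Cry2 ran over 10.67, 10.74 and 10.81 in Nic, and its log2 fold change was -0.08 (adjusted p in limma = 0.375). With Con 3 and Con 5 left out it was -0.02 for Cry2 (adjusted p in limma = 0.978), -0.09 for Per2 and -0.14 for Per3 (both adjusted p in limma = 0.953), so that most of the Cry2 difference rested on these arrays. For Per1 (-0.03, and 0.03 without Con 3 and Con 5) and Cry1 (0.05) the adjusted p in limma was 0.880 and 0.625.

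Ordered by group mean, Per3 and Per2 were highest in Con, then Nic, then Con-Pf. Cry1 ran the other way, highest in Con-Pf, then Nic, then Con. Per1 was highest in Con-Pf, then Con, then Nic, and Cry2 was highest in Con, then Con-Pf, then Nic. Among neighbours in these orders none differed at an adjusted p under 0.05, and the separation of Con-Pf from Con for Per3 and Cry1 is that of the ends of the order.

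**Figure D2:**
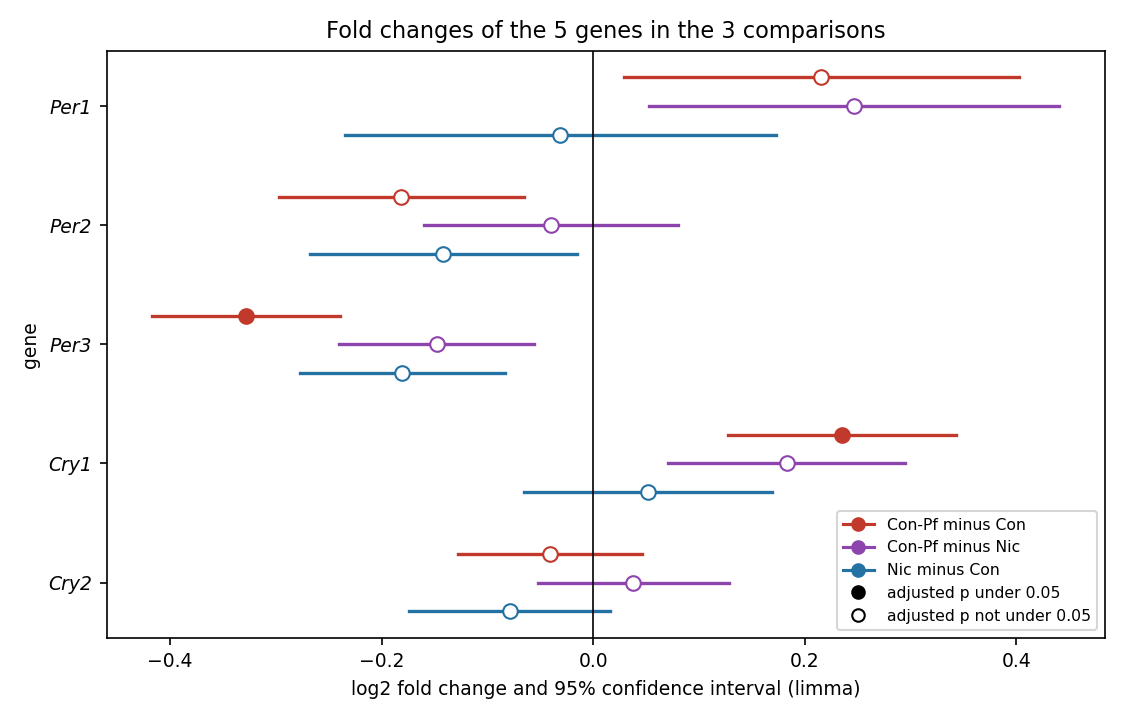
Log2 fold change (x axis) of the 5 genes in the 3 comparisons (Con-Pf with Con, Con-Pf with Nic, Nic with Con; the first minus the second), with the interval (95%) from limma as a line. Filled points passed at an adjusted p under 0.05, which were Per3 (-0.33) and Cry1 (0.24) in Con-Pf minus Con. The Nic minus Con point of Per3 (-0.18) lies between 0 and that of Con-Pf minus Con.

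Whether members of 1 family changed unequally was tested on differences within an array, which compare the change of one gene with that of another and not their levels. Per1 minus Per3 lay between 0.602 and 1.33 in Con-Pf and between 0.184 and 0.587 in Con, so that the groups did not overlap. The shift was 0.54 log2 units (exact permutation test, two-sided, p = 0.00016, adjusted over 12 tests 0.00192). Per1 minus Per2 shifted by 0.40 (exact permutation p = 0.000663, adjusted 0.00347) and Per2 minus Per3 by 0.15 (exact permutation p = 0.0213, adjusted 0.0365). Cry1 minus Cry2 shifted by 0.28 (exact permutation p = 0.000868, adjusted 0.00347). In these groups the 3 period genes and the cryptochrome pair thus shifted by unequal amounts.

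Whether these shifts passed depended on the grouping of Con-Pf 9 and Con-Pf 10, which are described as controls. Counted as Con, they made the groups overlap for Per1 minus Per3, with 0.602 to 1.27 in Con-Pf and 0.184 to 1.33 in Con, and its shift was 0.34 (adjusted exact permutation p = 0.0706). The shift of Per1 minus Per2 was then 0.29 (adjusted 0.0685), that of Per2 minus Per3 was 0.05 (adjusted 0.588) and that of Cry1 minus Cry2 was 0.23 (adjusted 0.0625), so that none passed. With both arrays left out, Per1 minus Per3 shifted by 0.49 with no overlap (adjusted exact permutation p = 0.00186), Per1 minus Per2 by 0.38 and Cry1 minus Cry2 by 0.28 (both adjusted 0.00559), and Per2 minus Per3 by 0.11 without passing (adjusted 0.0815).

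Without Con 3 and Con 5 the shift of Per1 minus Per3 was 0.57 (adjusted exact permutation p = 0.00749), that of Per1 minus Per2 was 0.41 (adjusted 0.0112) and that of Cry1 minus Cry2 was 0.21 (adjusted 0.0221). That of Per2 minus Per3 was 0.16 and no longer passed (adjusted 0.0534). Between Con-Pf and Nic, Per1 minus Per3 shifted by 0.39 (adjusted exact permutation p = 0.0114), Per1 minus Per2 by 0.29 (adjusted 0.0248), Per2 minus Per3 by 0.11 (adjusted 0.0365) and Cry1 minus Cry2 by 0.14 (adjusted 0.0523). With Con-Pf 9 and Con-Pf 10 left out, only the first of these passed, with a shift of 0.34 (adjusted exact permutation p = 0.0312), beside 0.27 for Per1 minus Per2 (adjusted 0.0548) and 0.07 for Per2 minus Per3 (adjusted 0.0772). With both counted as Con none passed (lowest adjusted 0.0625). Between Nic and Con the 4 differences shifted by 0.04 to 0.15, and none passed (lowest adjusted exact permutation p = 0.0702).

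**Figure D3:**
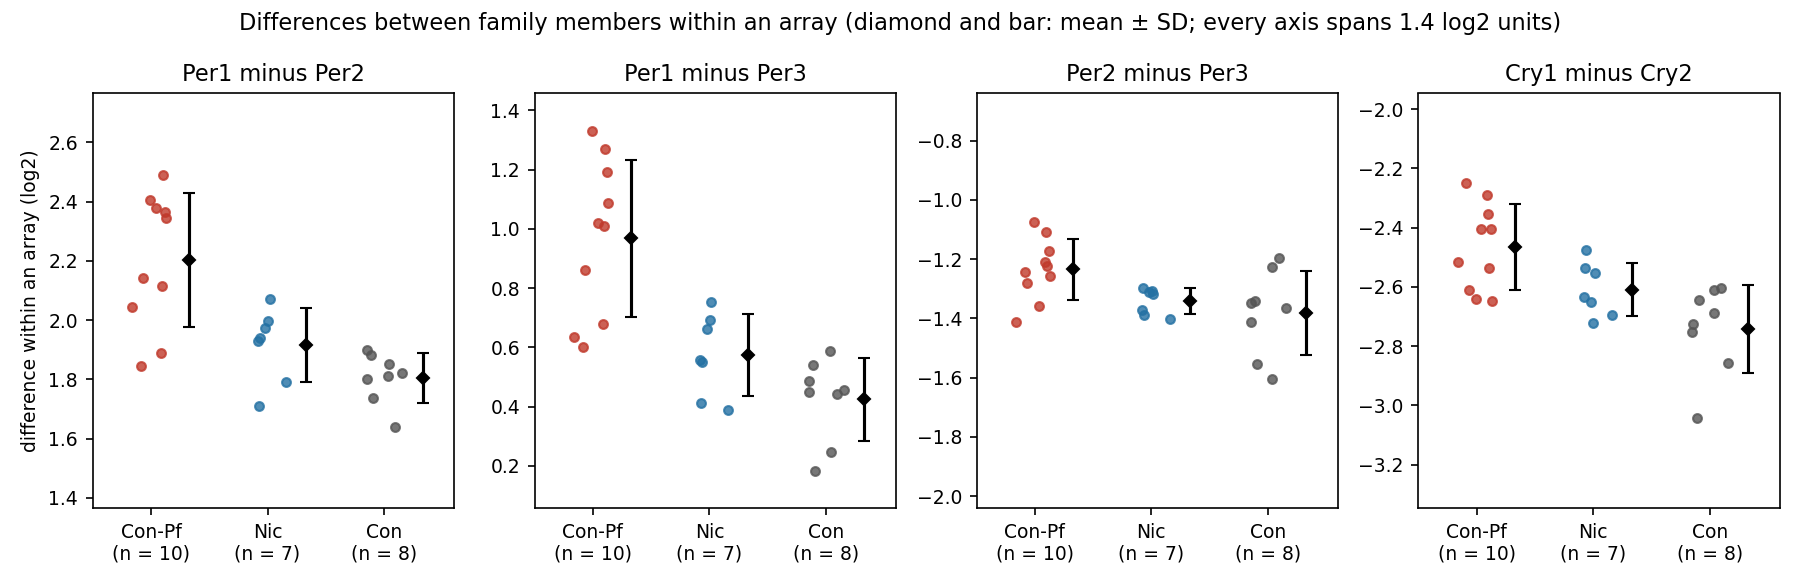
Difference between 2 genes of a family within an array (y axis, log2 units, 1.4 units in each panel) in Con-Pf (n = 10), Nic (n = 7) and Con (n = 8), with 1 point per array and the mean ± SD as a diamond and bar. Per1 minus Per3 is 0.602 to 1.33 in Con-Pf and 0.184 to 0.587 in Con, and does not overlap when Con-Pf 9 and Con-Pf 10 are counted as Con-Pf.

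Within the groups, the 5 genes varied together only in part. After the group means were removed, Per1 and Per2 correlated over the 25 arrays at a Pearson r of 0.58 (permutation p = 0.00379, adjusted over 10 pairs 0.0379) and a Spearman rho of 0.57 (permutation p = 0.00696, adjusted 0.0696). Without the 2 arrays farthest from the median of Per1, Con-Pf 4 and Con-Pf 8, r was 0.60. By group r was 0.57 in Con-Pf, -0.19 in Nic and 0.87 in Con, so that Nic did not show it. Without Con 3 and Con 5 the pair had an r of 0.49 over 23 arrays and no longer passed (adjusted permutation p = 0.275).

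Per2 and Per3 had an r of 0.51 (permutation p = 0.012, adjusted 0.0602) and a rho of 0.39 (permutation p = 0.0576, adjusted 0.288). Their r was 0.41 in Con-Pf, 0.95 in Nic and 0.48 in Con, and over all groups it was 0.44 without Con 2 and Con 5, the farthest from the median. It was 0.32 over 23 arrays (adjusted permutation p = 0.376) and -0.15 within Con once Con 3 and Con 5 were left out. Per1 and Cry1 ran in opposite directions in Con-Pf (r = -0.69 over 10 arrays), where the lowest Per1 value (9.76, Con-Pf 4) met the highest Cry1 value (8.56). In Nic (r = 0.26) and in Con (r = -0.03, and 0.34 without Con 3 and Con 5) they did not. Over all 25 arrays this pair had an r of -0.46 (permutation p = 0.0553, adjusted 0.184) and a rho of -0.33 (permutation p = 0.139, adjusted 0.464), and r was -0.30 without Con-Pf 4 and Con-Pf 8. Per3 and Cry1, the 2 genes that passed between Con-Pf and Con, did not vary together within the groups (r = -0.01, permutation p = 0.965, adjusted 0.989; rho = 0.04, permutation p = 0.849, adjusted 0.866), with an r of -0.01 also without Con 5 and Con 8. The adjusted p of r in the other 6 pairs was 0.372 or more.

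**Figure D4:**
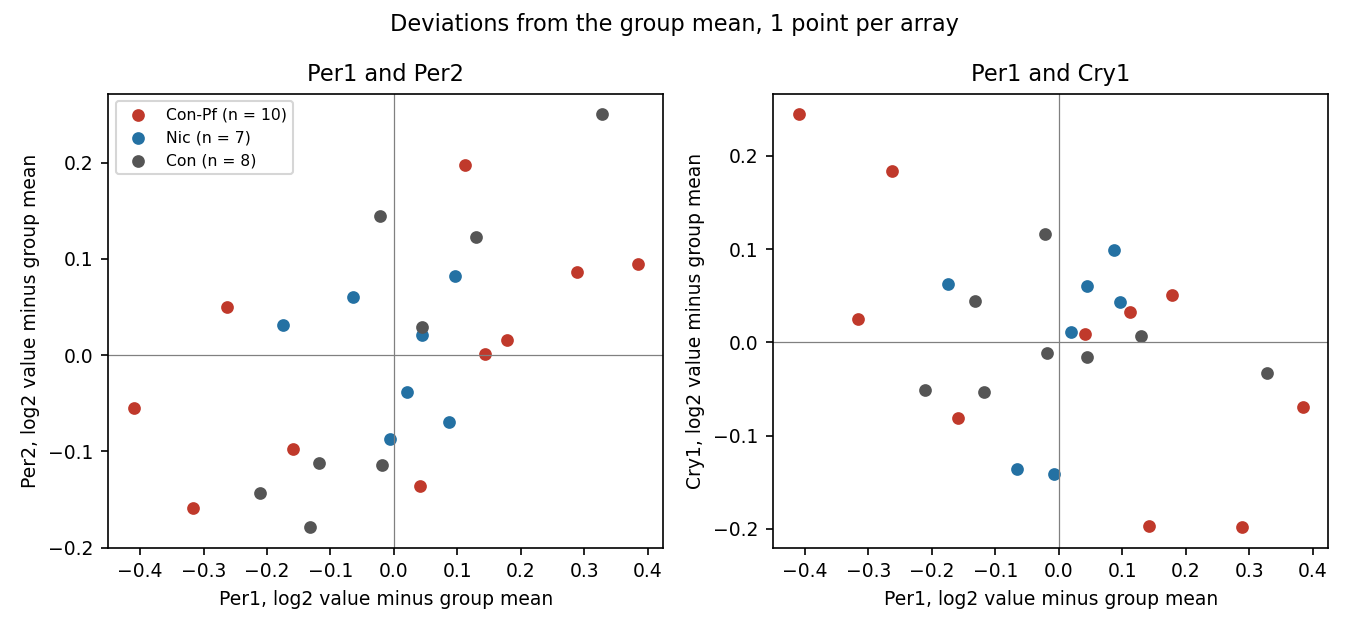
Log2 value minus the group mean of Per2 (left, y axis) and Cry1 (right, y axis) against that of Per1 (x axes), with 1 point per array in Con-Pf (n = 10), Nic (n = 7) and Con (n = 8). Per2 tends upwards with Per1 (r = 0.58 over 25 arrays), and Cry1 tends downwards in Con-Pf (r = -0.69), not in Nic (r = 0.26) or Con (r = -0.03).

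The genes differed in how far they followed the arrays that stand apart. Over the 25 arrays, the r of a gene with the first principal component was -0.71 for Cry2, -0.63 for Per2, -0.62 for Per3, 0.31 for Cry1 and -0.19 for Per1. Without Con 3 and Con 5 it was 0.00 for Cry2, -0.34 for Per2, -0.32 for Per3, 0.17 for Cry1 and -0.10 for Per1. The relation of Cry2 with this component thus rested on these 2 arrays.

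**Figure D5:**
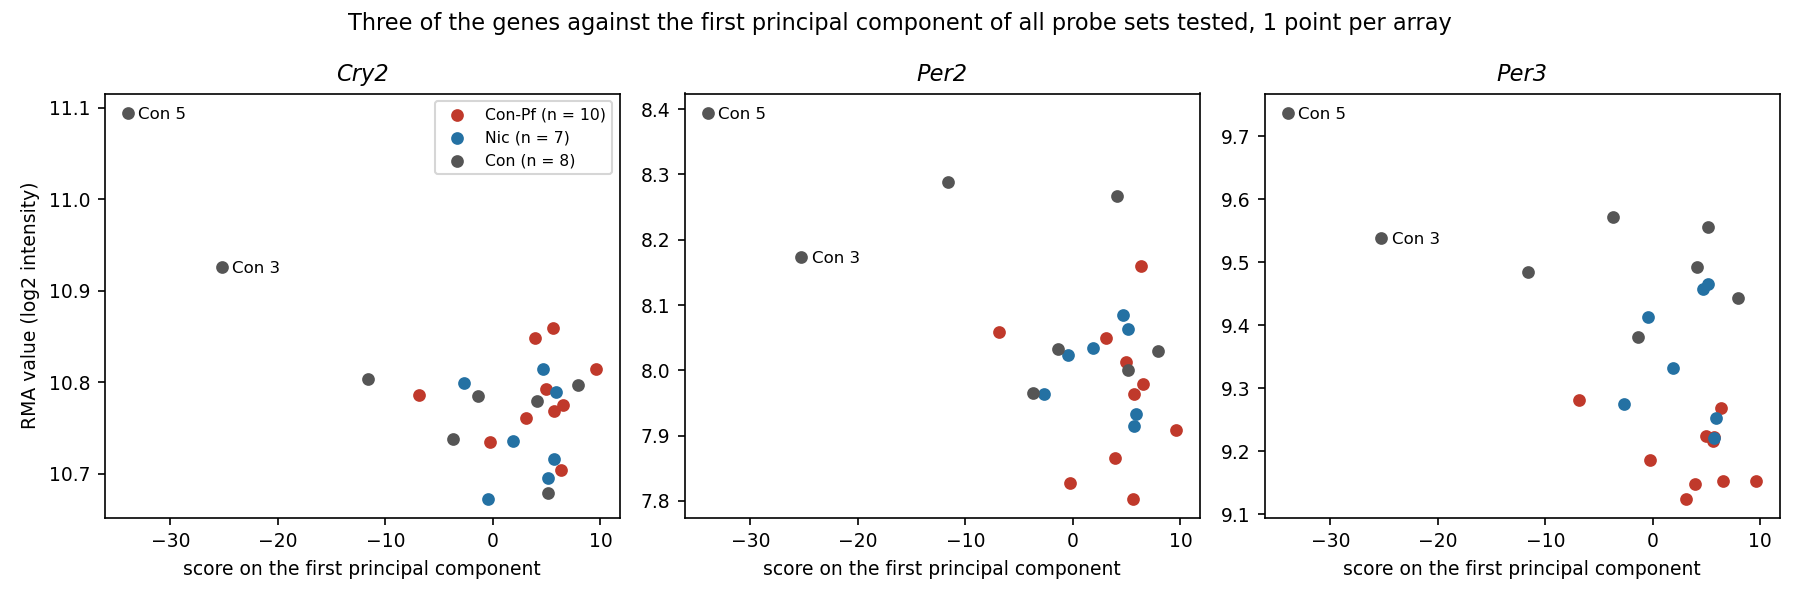
Log2 RMA value of Cry2, Per2 and Per3 (y axes) against the score on the first principal component of all probe sets tested (x axes), with 1 point per array in Con-Pf (n = 10), Nic (n = 7) and Con (n = 8). Con 3 and Con 5 lie far to the left at -25.2 and -33.9, and the Cry2 values of the other 23 arrays show no slope (r = 0.00).

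Around the family, the other genes of the loop were counted in lists that were chosen with earlier results of these data known. Of 4 genes listed on the CLOCK and BMAL1 side 3 were tested, and only Bmal1 passed. Its log2 fold change was 0.51 in Con-Pf minus Con (adjusted p in limma = 5.46e-06) and 0.30 in Con-Pf minus Nic (adjusted p in limma = 0.0334). Of 5 REV-ERB and ROR genes listed only the 2 REV-ERB genes were tested. Both fell in Con-Pf against Con, Nr1d1 by 0.23 (adjusted p in limma = 0.0364) and Nr1d2 by 0.33 (adjusted p in limma = 1.01e-06) on the log2 scale. Of 7 D-box and E-box factors listed 5 were tested, and all 5 passed, where 1.26% of all probe sets tested did. Nfil3, the D-box repressor, was higher by 0.45 (adjusted p in limma = 2.56e-05). The other 4 fell, with a log2 fold change of -0.36 for Dbp, -0.21 for Tef, -0.34 for Bhlhe40 and -0.22 for Bhlhe41 (adjusted p in limma of 0.00905, 0.000683, 0.000449 and 0.0219). Against Nic, of the 2 REV-ERB genes and these 5 factors only Nr1d2 (-0.24, adjusted p in limma = 0.001) and Nfil3 (0.31, adjusted p in limma = 0.0197) passed.

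Transcripts of the proteins that act on PER and CRY after translation were counted as well. Of 21 genes listed, such as the casein kinases Csnk1d and Csnk1e, which phosphorylate PER, and the ubiquitin ligase subunit Btrc, which sends it to degradation, 16 were tested. None of the 16 passed in any of the 3 comparisons. Of all probe sets tested, 1.26% passed in Con-Pf minus Con, 0.185% in Con-Pf minus Nic and 0% in Nic minus Con. The count of these genes thus does not set them apart from the rest. Their median log2 fold change was -0.04 in Con-Pf minus Con, beside 0.02 over all probe sets tested. In Nic minus Con no gene of any list passed.

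Per1 is also read out from signals outside the loop, and genes that share an input with it were counted. Of 10 genes tied to CREB and neuronal activity 7 rose in Con-Pf against Con, where 1% of all probe sets tested did. The median log2 fold change of the 10 was 0.62, beside 0.02 over all probe sets tested. Against Nic 6 rose, where 0.185% of all probe sets tested passed in either direction. Nr4a2 (-0.41 against Con), Crem (0.13) and Crtc1 (0.14) passed in neither comparison. Several of the genes that rose, among them Fos, Arc and Nr4a1, were picked by the study itself from these arrays. The count is thus no independent evidence. Nr4a1, an immediate early nuclear receptor, had a log2 fold change of 1.44 in Con-Pf minus Con, and Per1 one of 0.22 in the same comparison. Over the 25 arrays the r of Per1 was 0.60 with Nr4a1 and 0.40 with Fos, and after the group means were removed it was 0.47 and -0.07.

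The genes most like each member over the 25 arrays were sought among 8988 other genes by Pearson r, given here as a description without a test. For Per3 they were Tef (r = 0.87), Atosa (0.86) and Nr1d2 (0.84), 2 of them clock genes, and the most opposite was Cited2 (-0.89), a partner of the coactivators CBP and p300. With the group means removed the r with Tef was 0.53, with Nr1d2 0.39, with Atosa 0.75 and with Cited2 -0.61. The likeness to the clock genes thus lay partly between groups. Bmal1 had an r of -0.89 with Per3, and of -0.57 with the group means removed. For Cry1 they were Bmal1 (0.75), Rasl11a (0.74) and Jmjd6 (0.72), with Col4a1, a basement membrane collagen, as the most opposite (-0.76). The r of Cry1 with the group means removed was 0.41 for Bmal1 and -0.70 for Col4a1.

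For Per1 they were Peli1 (0.89), a ubiquitin ligase of innate immune signalling, Trib2 (0.84), a pseudokinase, and Gpr63 (0.83), a G protein-coupled receptor, with Rasl11b as the most opposite (-0.69). Here the likeness also lay within groups, with an r of 0.87, 0.81 and 0.81 for the first 3 after the group means were removed. None of them is a core clock gene. Peli1 itself was higher in Con-Pf than in Con by 0.31 on the log2 scale (adjusted p in limma = 0.0313). For Per2 the highest were Atosa (0.80), Hira (0.79) and Usp19 (0.79), and the most opposite was Nt5c3b (-0.78). These r were 0.68, 0.68, 0.71 and -0.76 with the group means removed. Leaving out Con 3 and Con 5, with the group means kept, gave 0.69, 0.66, 0.67 and -0.64.

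For Cry2 they were Washc2c (0.92), Zfp266 (0.89) and Pde4dip (0.89), with Ndufab1, a mitochondrial protein of complex I, as the most opposite (-0.88). Without Con 3 and Con 5 these values were 0.79, 0.71, 0.69 and -0.56, so that part of the likeness rested on these arrays. Clock, whose protein the cryptochromes block, had an r of 0.78 with Cry2, of 0.46 with Per2 and of -0.11 with Cry1. Over the arrays other than Con 3 and Con 5 these were 0.36, -0.02 and 0.20.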

How the data were processed

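Striatal RNA was hybridised to Affymetrix rat gene 1.0st arrays. The authors made the deposited log2 values with RMA (background correction, then quantile normalisation across arrays and a summary to 1 value per probe set); Affymetrix Expression Console 1.1 is named in the submitters' notes. The authors had removed 2 Con arrays and 1 Nic array, and all 25 deposited columns were used, grouped by title. RMA values carry no count or depth, so precision is limited by the number of arrays and given by the spread between animals.

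Probe sets were kept where their mean reached the median of the probe-set means (6.97). Symbols came from the platform annotation (15310 probe sets with 1 symbol, 323 with several, 13581 with none), updated by gene ID, and of several probe sets of a gene the brightest stood for it. Group differences came from limma 3.58.1 (R 4.3.3), in 1 model over the 3 groups, with Benjamini-Hochberg adjustment over 14607 probe sets (threshold 0.05). Differences within an array were tested by exact permutation, and correlations by 100000 permutations within groups, in Python 3.11.15 with scipy 1.17.1. Principal components were taken over the probe sets kept. The steps were tested on simulated data.

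The members, lists and tests were chosen with earlier results of these data known. All members are named, with the 3 genes of highest and the 1 of lowest r for each, and of the other lists those that passed, with further examples named after their values were seen. Alternatives tried were the methods' t-test, the same with pooled variance, 2 groups only, trend and robust moderation, array weights, no or a stricter filter (quantile 0.75), further quantile normalisation, centring on the array median, the treatment of Con-Pf 9 and 10, Con 3 and Con 5 left out, a replicate block, and each array left out. For differences within an array, the treatment of Con-Pf 9 and 10 was added after seeing the data. Replicate numbers were not used as pairs in the fit reported. Deviations of arrays with the same number correlated at -0.362 to 0.341, which cannot tell whether some animals were matched. The study set the food of pair-fed dams by matched nicotine dams, and the labels do not name these matches. The methods list 10 Con and 8 Con-Pf arrays beside the statistics, where the labels used here give 8 and 10. The study's account of its samples gives 10 animals in each of these groups before 2 Con arrays were removed. Its printed fold changes of Nr4a1, Arc and Fos were those of the grouping by title.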

Additional observations from a re-analysis of the deposited data

How the results depend on the processing

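Of 579 values of the 5 genes under the alternatives, 571 kept their side of the threshold, 6 lost and 2 gained a call, and none reversed past it; 5 values of Cry2 or Per1, none past the threshold, had the other sign. Leaving out each of the 25 arrays changed no call of the 5 genes. The fall of Per3 in Con-Pf against Con ended only with Con-Pf 9 and 10 counted as Con (-0.26, adjusted p in limma = 0.0572). The rise of Cry1 ended there (0.23, adjusted p in limma = 0.113), with the methods' t-test, the pooled t-test, no filter, and Con 3 and Con 5 left out, over which adjusted p ran as high as 0.113. The number of the 5 genes called in Con-Pf minus Con, 2 in the fit reported, was thus 1 with the methods' t-test, the pooled t-test, no filter, and Con 3 and Con 5 left out, 1 with the stricter filter, which removes Cry1 and Per2, and 0 with Con-Pf 9 and 10 counted as Con; it was 3 in replicates 1 to 7 with no block, where Per2 was gained. In Con-Pf minus Nic it was 1 with array weights (Cry1, 0.22, adjusted p in limma = 0.049). Over all probe sets, the 184 calls of Con-Pf minus Con became 66 (methods' t-test), 84 (pooled t-test), 99 (2 groups only), 96 (no filter), 116 (Con-Pf 9 and 10 left out), 27 (counted as Con), 85 (Con 3 and Con 5 left out) and 104 to 480 (each array left out; 104 without Con 3, 480 without Con 7). The 27 calls of Con-Pf minus Nic became 6 (methods' t-test), 8 (pooled t-test), 55 (array weights), 14 (stricter filter) and 5 (Con-Pf 9 and 10 counted as Con). With a replicate block over replicates 1 to 7 they were 14, beside 17 for the same arrays with no block; in Con-Pf minus Con the block gave -0.36 for Per3 (adjusted p in limma = 0.00187) and 0.26 for Cry1 (adjusted p in limma = 0.0425). For Per2 the block gave -0.25 (adjusted p in limma = 0.0601), and the same arrays with no block an adjusted p in limma of 0.0453. The shift of Per2 minus Per3 within an array against Con and against Nic no longer passed after further quantile normalisation (adjusted exact permutation p = 0.0504 for both). With Con-Pf 9 and 10 counted as Con, a setting chosen after seeing the data for these shifts, all 7 of the shifts within an array that had passed no longer did, and with both arrays left out 3 of the 7 no longer did. For the shifts against Nic these 2 settings compare the same arrays and differ only in the adjustment. Apart from this, the cause of the changes was not tested.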

Other observations

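Glucocorticoids also drive Per1, and of 10 glucocorticoid-induced genes tested 3 passed in Con-Pf against Con, in both directions. Over all probe sets tested 1.26% passed. Klf9, a transcription factor, fell by 0.42 on the log2 scale (adjusted p in limma = 0.00089) and Tsc22d3, the leucine zipper protein GILZ, by 0.19 (adjusted p in limma = 0.00542), while Cdkn1a, a cell cycle inhibitor, rose by 0.34 (adjusted p in limma = 0.0188). The co-chaperone gene Fkbp5 had a log2 fold change of -0.21 (adjusted p in limma = 0.0658). The median of the 10 was -0.12, beside 0.02 over all probe sets tested. In Con-Pf minus Nic and in Nic minus Con none of the 10 passed, where 0.185% and 0% of all probe sets tested did.

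Over the 25 arrays the r of Klf9 was 0.79 with Per3, 0.67 with Per2, -0.56 with Cry1 and -0.02 with Per1. With the group means removed it was 0.59 with Per1, 0.48 with Per2, 0.39 with Per3 and -0.05 with Cry1. Over the 23 arrays other than Con 3 and Con 5, with the group means kept, it was 0.69 with Per3, 0.50 with Per2, -0.53 with Cry1 and -0.16 with Per1. These values are a description of 25 arrays that share their normalisation, with no test.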
